A study of Rattus norvegicus with 47 samples.

Results

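Genes of cytotoxic granules and of natural killer (NK) cells were followed in rat blood before and after stroke. They were Gzma, Gzmb, Gzmm, Prf1, Ctsw, Nkg7, Klrk1, Klrd1, Ncr1 and Tbx21, which is 10 of the 20935 gene symbols on the array. A probe set was taken for a gene where its annotation names that symbol, and where several did, the one with the highest mean over the 6 time points was used. The 10 symbols stood on 12 of 27596 probe sets, since Gzmb had 3. The arrays were Affymetrix RaGene gene arrays of RNA from whole blood cell pellets of 8 male spontaneously hypertensive rats (SHR), 16 weeks old, each sampled before and at 1, 2, 3, 6 and 24 hours after a thread was advanced to close the middle cerebral artery (MCA occlusion, MCAo). There were 8 arrays at each time point except 6 hours, with 7. The sample at 0 h was taken before anesthesia, and the later ones followed anesthesia and surgery, with no sham-operated rats among the samples. The occlusion was transient: the thread was withdrawn, under a further anesthesia, between the 1 hour and the 2 hour sample. At 1 hour, stroke, surgery, the first anesthesia and time of day therefore cannot be told apart, and from 2 hours on neither can reperfusion and the further anesthesia. Blood up to 6 hours came from the tail vein and at 24 hours from the heart just after an anesthetic overdose, so late change, sampling site and that overdose cannot be told apart either. The signal is the log2 RMA value, and each level is the authors' mean with the authors' deposited SD on that scale.

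NK cells and cytotoxic T cells kill target cells by releasing granules. Perforin opens the target's membrane, granzymes are serine proteases that enter through it and start cell death, and the release is triggered through surface receptors that read stress ligands and major histocompatibility complex (MHC) molecules. Both cell types circulate in blood, and the T-box factor T-bet, encoded by Tbx21, drives much of the programme in each. In whole blood, fewer cells of a type and less RNA per cell cannot be told apart. At 0 h the members' means lay above those of 63.6% (Tbx21) to 97.6% (Gzmb) of all probe sets, a rough guide only, since probe sets differ in brightness.

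Promoters of 4 members are shown because most members fell over the same hours, and their motifs for factors of cytotoxic lymphocytes (RUNX, ETS, STAT and T-box proteins) were looked for. They are from RefSeq on the rat build GRCr8, from 250 bases before to 50 bases after the gene's start, and 7 of the 10 members had an entry (Nkg7, Gzma, Gzmb, Gzmm, Prf1, Klrk1 and Tbx21). The windows are chr15:34462420-34462719 on the minus strand for Gzmb, chr20:29788790-29789089 on the plus strand for Prf1, chr7:10667207-10667506 on the minus strand for Gzmm and chr4:164778333-164778632 on the minus strand for Klrk1. Capitals mark matches to any of 4 motifs, searched on both strands.
Gzmb: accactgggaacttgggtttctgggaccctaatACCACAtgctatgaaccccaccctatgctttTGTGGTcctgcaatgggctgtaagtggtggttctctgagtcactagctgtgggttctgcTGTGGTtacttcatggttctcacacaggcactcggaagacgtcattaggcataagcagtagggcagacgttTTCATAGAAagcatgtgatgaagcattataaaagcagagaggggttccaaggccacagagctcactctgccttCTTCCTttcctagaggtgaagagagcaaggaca
Prf1: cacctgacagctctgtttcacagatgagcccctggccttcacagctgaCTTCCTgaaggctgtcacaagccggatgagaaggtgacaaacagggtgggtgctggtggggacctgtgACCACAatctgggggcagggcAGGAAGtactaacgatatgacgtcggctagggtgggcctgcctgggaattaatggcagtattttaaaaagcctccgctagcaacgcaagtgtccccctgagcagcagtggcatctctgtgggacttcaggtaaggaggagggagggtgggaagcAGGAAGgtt
Gzmm: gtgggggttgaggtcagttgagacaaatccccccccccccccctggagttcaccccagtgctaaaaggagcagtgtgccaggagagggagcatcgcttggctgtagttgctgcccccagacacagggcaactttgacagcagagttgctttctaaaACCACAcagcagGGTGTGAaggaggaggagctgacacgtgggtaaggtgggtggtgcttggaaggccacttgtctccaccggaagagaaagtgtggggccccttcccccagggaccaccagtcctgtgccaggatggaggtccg
Klrk1: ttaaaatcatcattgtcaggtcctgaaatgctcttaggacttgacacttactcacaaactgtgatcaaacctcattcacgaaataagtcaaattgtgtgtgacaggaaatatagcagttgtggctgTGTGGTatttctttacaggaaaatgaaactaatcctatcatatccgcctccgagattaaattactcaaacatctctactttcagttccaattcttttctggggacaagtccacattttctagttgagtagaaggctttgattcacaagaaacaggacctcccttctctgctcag
The RUNX motif TGTGGT (or ACCACA) was found in 6 of the 7 member promoters and in 17.3% of the 33469 promoters in the table. It occurred 3 times in that of Gzmb, and Tbx21 was the member without it. The ETS motif AGGAAG (or CTTCCT) was found in 3 of 7, against 34.5% of all promoters, the STAT motif TTCNNNGAA in 2 of 7, against 8.87%, and the T-box motif GGTGTGA (or TCACACC) in 1 of 7, that of Gzmm, against 3.83%. In Gzmm it began 82 bases before the start, close to the RUNX match at 94 bases. A match of letters is a description of the sequence and no evidence of binding. Shared control of the members was not tested.

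Of the 10 members, 9 were called lower in blood after MCAo at 1 or more time points, and Ncr1 was the one that rose. That count pools 5 comparisons, whereas the shares of all probe sets given below are for single time points. The members' median fell further up to 6 hours and was nearly as low at 24 hours. The median change of the 10 from 0 h, on the log2 scale, was -0.19 at 1 hour, -0.43 at 2 hours, -0.64 at 3 hours, -0.69 at 6 hours and -0.66 at 24 hours. The median over all 27596 probe sets stayed between 0.04 and 0.07. A moderated test after limma was built on the deposited mean, SD and number of arrays of each time point, and a gene was called at a Benjamini-Hochberg adjusted p below 0.05 over all 27596 probe sets. At 1 hour 3 members were called lower (15.4% of all probe sets were) and 1 higher (21.7%), which became 1 and 1 after quantile normalization of the means and 2 and 0 with the variance of the 2 time points alone (3 and 1 at an unadjusted p below 0.05). At 2 hours 7 were lower (18.6%) and 1 higher (21.7%), or 4 and 1 after quantile normalization. At 3 hours 8 were lower (19.2%) and 0 higher (27.3%), with 9 lower and 0 higher at an unadjusted p below 0.05. At 6 hours 8 were lower (19.3%) and 1 higher (22.5%). At 24 hours 7 were lower (13.9%) and 0 higher (17.4%), with the same 7 and 0 at an unadjusted p below 0.05. By an F-test over the 6 time points 9 of 10 were called (55.5% of all), and 3, Gzmb, Prf1 and Klrk1, passed a stricter p of 5e-07 (13.5% of all). That threshold is the study's, applied here to another test, so passing it here does not mean passing it in the study. All 5 comparisons share the 0 h arrays. The test treats arrays as independent although each rat was sampled repeatedly.

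**Figure D1:**
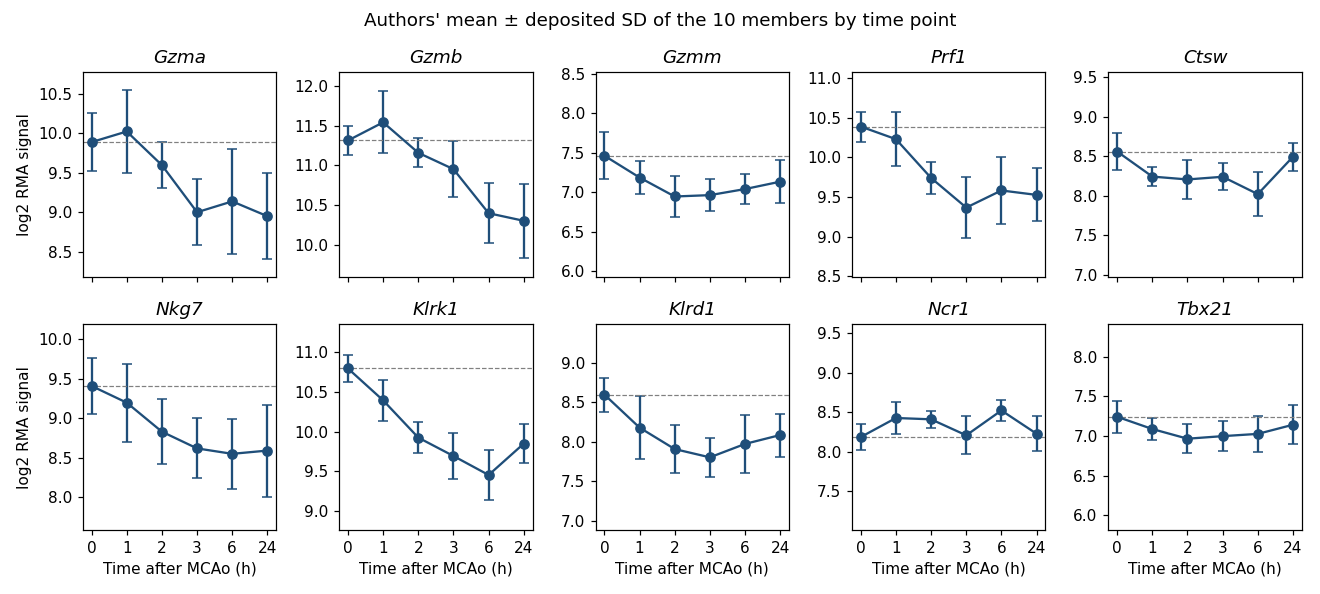
Authors' mean log2 RMA signal (points) with the authors' deposited SD (bars) of the 10 genes at 0, 1, 2, 3, 6 and 24 h after MCAo, with the time points evenly spaced and each vertical axis spanning the same length in log2 units. The dashed line is the mean at 0 h. Gzma and Gzmb were at their lowest at 24 h, Klrk1 at 6 h, and Ncr1 lay above its 0 h line.

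Granzyme A was first called lower at 3 hours, and granzyme B at 6 hours. Gzmb encodes the granzyme best known for triggering caspases in the target cell, and its probe set lies on rn5 chr15:40324307-40324590, minus strand. Its mean was 11.32 ± 0.18 (SD, n = 8) before occlusion, then 11.55 ± 0.39 at 1 hour, 11.16 ± 0.18 at 2 hours, 10.95 ± 0.36 at 3 hours, 10.40 ± 0.38 at 6 hours (n = 7) and 10.30 ± 0.47 at 24 hours. The first 3 time points differed by less than their largest SD, and the last 2 lay below all others. The change was not called at 1 hour (0.23, 95% interval -0.10 to 0.56), 2 hours (-0.16, -0.49 to 0.17) or 3 hours (-0.36, adjusted p = 0.0642), although at 3 hours it was called after centring on the median and without the 24 hour samples (adjusted p = 0.0414). It was called at 6 hours, at -0.92 ± 0.17 (SE; adjusted p = 1.78e-05), and at 24 hours, at -1.02 ± 0.16 (adjusted p = 5.89e-06), when the signal was 49.5% of that at 0 h. Gzma encodes a granzyme with trypsin-like specificity (rn5 chr2:64004695-64017285, minus strand). In order of time, its means were 9.89 ± 0.36, 10.02 ± 0.52, 9.60 ± 0.29, 9.002 ± 0.42, 9.14 ± 0.66 and 8.95 ± 0.54. The 3 late means were lower than the 3 early ones and close to each other (24 against 3 hours: -0.05, 95% interval -0.50 to 0.40), and the SD pooled over time points was the widest of any member. Gzma was called lower at 3 hours (-0.89, adjusted p = 0.00128), 6 hours (-0.75, adjusted p = 0.00831) and 24 hours (-0.94 ± 0.23, adjusted p = 0.00141), and not at 2 hours (-0.29, 95% interval -0.75 to 0.16). The call at 6 hours was lost when the variance of only the 2 compared time points was used (adjusted p = 0.0661).

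The 3 probe sets annotated to Gzmb did not run together. Each also names granzyme B-like genes, so the signals of the family members cannot be separated on this array. The probe set used above is shared with Gzmbl2. One of the others, shared with Gzmbl1, Gzmbl2 and Gzmbl3, had nearly the same course, with -0.43 at 3 hours, where it was called (adjusted p = 0.0233), -0.93 at 6 hours and -1.03 at 24 hours. The remaining probe set, on rn5 chr15:39971483-39974611 and shared with Gzmbl3, was 6.02 ± 0.26 at 0 h and rose to 7.13 ± 0.59 at 1 h and 7.27 ± 0.30 at 2 h, before 6.59 ± 0.32 at 3 h, 5.77 ± 0.31 at 6 h and 5.60 ± 0.18 at 24 h. Its rise was 1.10 ± 0.17 (SE) at 1 hour (adjusted p = 1.08e-06) and 1.25 ± 0.17 at 2 hours (adjusted p = 2.91e-08), and its change at 24 hours was -0.43 (adjusted p = 0.0455). When the 3 were averaged, Gzmb was called higher at 1 hour (0.50, adjusted p = 0.0135) and its change at 2 hours turned to 0.30 (adjusted p = 0.137), while the fall at 24 hours was -0.82.

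**Figure D2:**
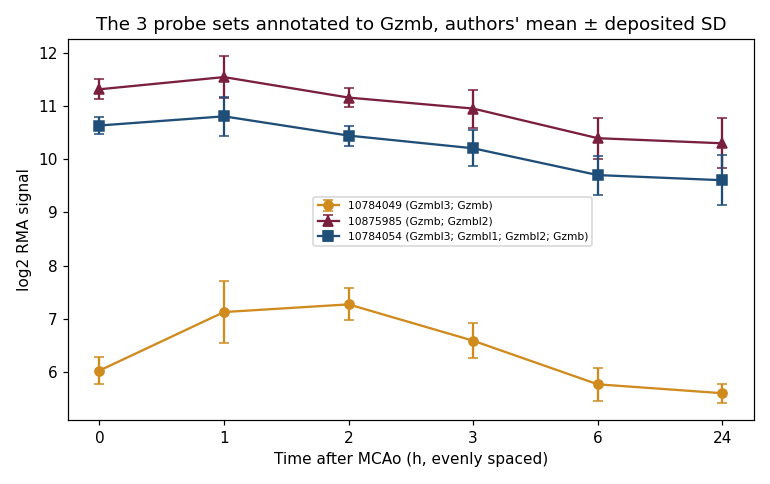
Authors' mean log2 RMA signal (points) with deposited SD (bars) by time after MCAo, evenly spaced, for the 3 probe sets whose annotation names Gzmb, with all symbols of each in brackets. The upper pair fell together to 24 h, whereas the lowest one rose from 6.02 to 7.27 by 2 h and was 5.60 at 24 h.

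Perforin was called lower from 2 hours on. Prf1, which encodes the pore-forming protein of the granule (rn5 chr20:32706313-32711823, plus strand), had means of 10.39 ± 0.19, 10.23 ± 0.34, 9.74 ± 0.20, 9.37 ± 0.38, 9.58 ± 0.42 and 9.53 ± 0.34. The 4 time points from 2 h on were lower than the first 2. Its change was -0.16 at 1 hour (adjusted p = 0.428), -0.65 at 2 hours (adjusted p = 5.86e-04), -1.02 ± 0.15 (SE) at 3 hours (adjusted p = 3.90e-07), where it was lowest at 49.2% of the 0 h signal, -0.81 at 6 hours and -0.86 at 24 hours (adjusted p = 2.80e-05). Nkg7 encodes a granule membrane protein needed for release, and is one of the candidate stroke biomarkers that the study drew from earlier literature (rn5 chr1:99569677-99570744, minus strand). Its means were 9.41 ± 0.36, 9.20 ± 0.49, 8.83 ± 0.41, 8.62 ± 0.38, 8.55 ± 0.44 and 8.59 ± 0.58. They declined up to 6 h, and the 3, 6 and 24 h means lay within 0.07 of each other, well inside their SDs. Nkg7 was called lower at 2 hours (-0.58, adjusted p = 0.0264), 3 hours (-0.79), 6 hours (-0.86 ± 0.22, adjusted p = 0.00148) and 24 hours (-0.82 ± 0.21, adjusted p = 0.00299). The call at 2 hours was lost after quantile normalization of the means (-0.51, adjusted p = 0.0565).

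The largest falls of the other granule proteases were smaller. At 2 hours, though, Gzmm (-0.52) and Ctsw (-0.35) had larger changes than Gzma (-0.29) and Gzmb (-0.16). Gzmm, a granzyme typical of NK cells (rn5 chr7:13062477-13068001, minus strand), had means of 7.46 ± 0.29, 7.19 ± 0.21, 6.95 ± 0.26, 6.96 ± 0.20, 7.04 ± 0.19 and 7.13 ± 0.27. It was lowest at 2 hours, with a change of -0.52 ± 0.12 (adjusted p = 3.55e-04), and was -0.33 at 24 hours (adjusted p = 0.0279). The 24 hour call was lost with the variance of those 2 time points alone and after quantile normalization (adjusted p between 0.0143 and 0.0993 over the alternatives). Ctsw encodes cathepsin W, a cysteine protease of NK and cytotoxic T cells (rn5 chr1:227773906-227777294, minus strand). Its means were 8.56 ± 0.23, 8.24 ± 0.12, 8.21 ± 0.25, 8.24 ± 0.17, 8.02 ± 0.28 and 8.49 ± 0.18. The 4 middle time points lay below both ends. It was called lower at 1 hour (-0.32, adjusted p = 0.0128), 2 hours (-0.35), 3 hours (-0.32) and 6 hours (-0.54 ± 0.11, adjusted p = 4.78e-05), and the calls at 1, 2 and 3 hours were lost after quantile normalization. At 24 hours the change was -0.07 (95% interval -0.27 to 0.14).

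The receptors differed in direction. Klrk1 encodes the activating receptor NKG2D, which reads stress-induced ligands (rn5 chr4:212036246-212045392, minus strand). Its means were 10.80 ± 0.18, 10.39 ± 0.25, 9.92 ± 0.19, 9.69 ± 0.29, 9.45 ± 0.31 and 9.85 ± 0.25. Every later mean lay below that at 0 h by more than the SD of either time point. The change was -0.40 at 1 hour (adjusted p = 0.00701), -0.87 at 2 hours (adjusted p = 5.01e-08), -1.11 at 3 hours, -1.35 ± 0.12 (SE) at 6 hours (adjusted p = 1.16e-12) and -0.95 ± 0.12 at 24 hours (adjusted p = 4.47e-08). The signal at 6 hours was 39.3% of that at 0 h, the lowest share among the members. Klrd1 encodes CD94, which pairs with NKG2 proteins to read MHC class I (rn5 chr4:212001272-212012721, plus strand), and lies close to Klrk1 on the chromosome. Its means were 8.60 ± 0.22, 8.18 ± 0.40, 7.91 ± 0.30, 7.80 ± 0.24, 7.97 ± 0.37 and 8.08 ± 0.27. It was called lower at every time point, from -0.42 at 1 hour (adjusted p = 0.0214) through -0.79 ± 0.15 at 3 hours (adjusted p = 1.74e-05) to -0.51 at 24 hours (adjusted p = 0.0064). The call at 1 hour was lost after quantile normalization (-0.33) and with the variance of the 2 time points alone.

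Ncr1, which encodes the activating receptor NKp46 and is among the most NK-restricted genes known (rn5 chr1:75322401-75367859, plus strand), had means of 8.19 ± 0.17, 8.43 ± 0.20, 8.41 ± 0.11, 8.21 ± 0.24, 8.52 ± 0.13 and 8.23 ± 0.22. The 1, 2 and 6 h means were the high ones. It rose by 0.24 at 1 hour (adjusted p = 0.0335), 0.22 at 2 hours (adjusted p = 0.0446) and 0.34 ± 0.09 at 6 hours (adjusted p = 0.00347), while at 3 hours (0.02, 95% interval -0.16 to 0.20) and 24 hours (0.04, -0.14 to 0.22) no change was called. The calls at 1 and 2 hours were lost once each time point was centred on its median (0.19 and 0.20). That at 1 hour was also lost with the variance of the 2 time points alone, and that at 2 hours without moderation (adjusted p at most 0.104 and 0.0884 over the alternatives). After centring, the small value at 3 hours turned to -0.02. The call at 6 hours held in every alternative (adjusted p at most 0.00807). Tbx21 (rn5 chr10:84823134-84856169, minus strand) had means of 7.24 ± 0.20, 7.09 ± 0.14, 6.97 ± 0.18, 7.00 ± 0.19, 7.03 ± 0.23 and 7.14 ± 0.24. It was lowest at 2 hours (-0.28 ± 0.10, adjusted p = 0.0193) and was also called at 3 hours (-0.24, adjusted p = 0.0347), both lost after quantile normalization. At 6 hours (-0.22, adjusted p = 0.0779) it was called only after centring on the median (adjusted p = 0.0469). It was not called at 24 hours (-0.10, 95% interval -0.30 to 0.09) and was the member that the F-test did not call (adjusted p = 0.102).

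**Figure D3:**
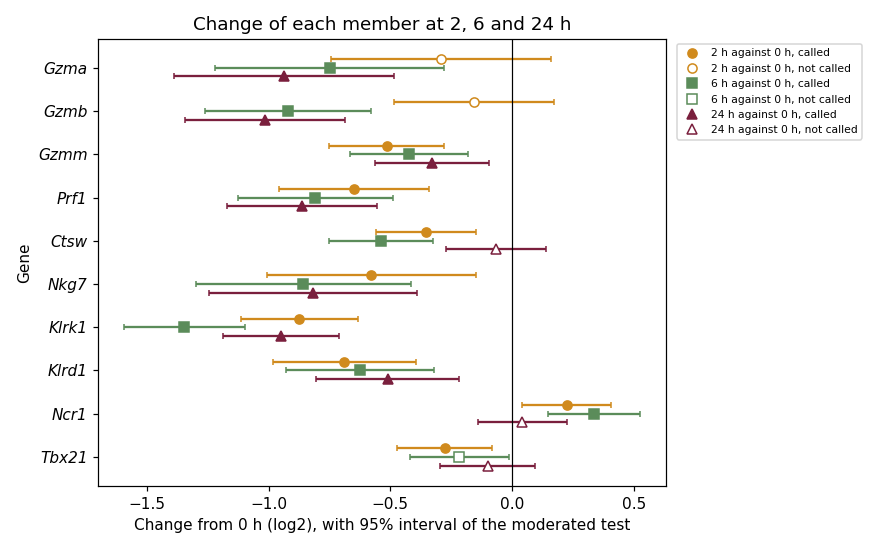
Change from 0 h in log2 units (horizontal axis) of each gene at 2, 6 and 24 h, with bars for the 95% interval of the moderated test. Filled symbols passed an adjusted p below 0.05 and open ones did not. Gzma and Gzmb were called at 6 and 24 h but not at 2 h, Ctsw and Ncr1 at 2 and 6 h but not at 24 h, and Ncr1 alone lay above 0 at 6 h.

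Neighbours in the order of the 6 levels mostly lay within the spread of single arrays. That spread is not the error of a difference of means, so the order itself was not tested here. Of 50 pairs of neighbours in that order, 5 for each gene, 6 differed by more than the larger of their SDs. These were Gzmb between 6 and 3 h (0.56), Prf1 between 2 and 1 h (0.49), Klrd1 between 1 and 0 h (0.42), Klrk1 between 2 and 1 h (0.47) and between 1 and 0 h (0.40), and Ctsw between 1 and 24 h (0.25). The lowest mean fell at 24 h in 2 genes (Gzma and Gzmb), at 6 h in 3 (Nkg7, Klrk1 and Ctsw), at 3 h in 2 (Prf1 and Klrd1), at 2 h in 2 (Gzmm and Tbx21) and at 0 h in Ncr1. The members varied between arrays more than the median probe set. Their SD pooled over time points ran from 0.19 (Ncr1) to 0.48 (Gzma), and all 10 exceeded the median of 0.15 over all probe sets. Differences between rats and measurement noise cannot be told apart in this SD. No comparison with probe sets of like signal was made.

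Steps between consecutive time points were also tested. From 1 to 2 hours Prf1 (-0.49, adjusted p = 0.0337) and Klrk1 (-0.47, adjusted p = 0.00674) were called lower, 2 of 10 where 4.11% of all probe sets were lower and 4.66% higher. The call of Prf1 was lost with the variance of the 2 time points alone (adjusted p = 0.0618). From 2 to 3 hours 0 members were called by the moderated test, as by each alternative form of it, with 3 lower at an unadjusted p below 0.05 (Gzma, Prf1 and Ncr1), and 1.62% of all probe sets were called lower and 1.9% higher. From 3 to 6 hours Gzmb was called lower (-0.56, 2.44% of all) and Ncr1 higher (0.31, 2.34% of all), and neither was called without moderation. From 6 to 24 hours Klrk1 (0.40) and Ctsw (0.47 ± 0.11) were higher, where 10.2% of all were, and Ncr1 was lower (-0.29), where 8.68% were. With the variance of the 2 time points alone the calls of Klrk1 (adjusted p = 0.107) and Ncr1 (adjusted p = 0.0628) were lost.

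The late course was tested directly by setting 24 hours against 2 hours. Gzmb (-0.86 ± 0.16, adjusted p = 8.92e-05) and Gzma (-0.65 ± 0.23, adjusted p = 0.0414) were lower at 24 than at 2 hours, 2 of 10 where 7.52% of all probe sets were, and Ctsw was higher (0.29 ± 0.10, adjusted p = 0.0452), 1 of 10 where 8.7% were. The calls of Gzma and Ctsw were lost without moderation. The other 7 were not called. Klrk1 was at -0.08 (95% interval -0.32 to 0.16), Prf1 at -0.21 (-0.52 to 0.09), Nkg7 at -0.24 (-0.67 to 0.19) and Ncr1 at -0.18. Gzmm (0.19), Klrd1 (0.18) and Tbx21 (0.18) lay above 0. Against 3 hours, Gzmb alone was called (-0.65, adjusted p = 0.00356; 7.17% of all probe sets were lower and 6.67% higher), and this call was lost with the variance of the 2 time points alone (adjusted p = 0.0746). B cell markers ran otherwise. Their median change was -2.04 at 2 hours, -2.13 at 3 hours and -0.53 at 24 hours, and 10 of 12 were higher at 24 than at 2 hours, with a median difference of 1.35. Of 12 T cell markers, 4 were called higher at 24 than at 2 hours, with a median difference of 0.15 (the members' was -0.13). Between 24 and 3 hours the median difference was 0.26 in the T cell markers. It was 0.15 in the members, with 3 of 10 below 0. For the 9 members with a fall within the first 6 hours, the median share of the largest such fall left at 24 hours was 70.5%, from 12.2% in Ctsw to 110.4% in Gzmb. The same median was 59.9% over the T cell markers and 30.9% over the B cell markers. These lists were compared by counts and medians, not by a test between lists. Members, lists and rules were chosen with earlier results of these data known. The contrast with the B cell markers is therefore a description and no independent test.

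**Figure D4:**
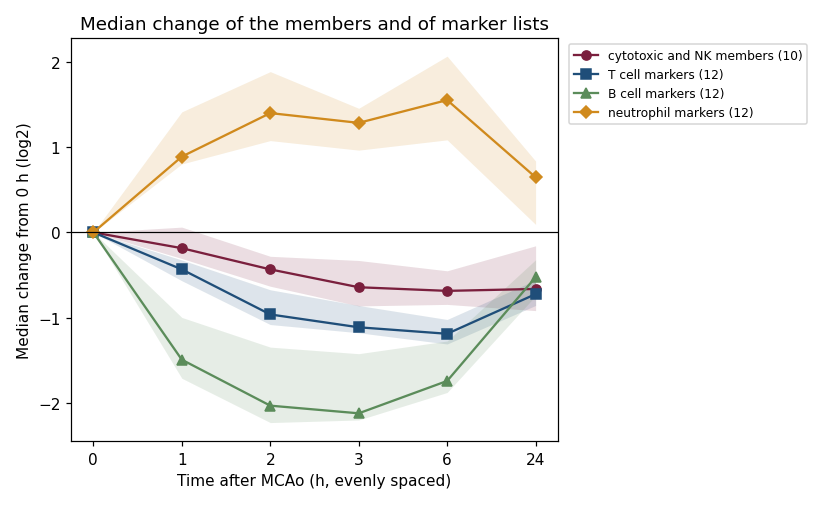
Median change from 0 h in log2 units (lines) with the lower and upper quartiles (shaded) by time after MCAo, evenly spaced, for the 10 members and for 12 markers each of T cells, B cells and neutrophils. The B cell median fell to -2.13 at 3 h and was -0.53 at 24 h, the members' stayed between -0.64 and -0.69 from 3 h on, and the neutrophil median lay above 0 throughout.

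Markers of other blood cells moved too, though not every list did so at every time point. Of 12 T cell markers, 10 were called lower at 1 hour (15.4% of all probe sets were), with a median of -0.43. All 12 were called lower at 2, 3, 6 and 24 hours, with medians of -0.96, -1.11, -1.19 and -0.72 (13.9% to 19.3% of all). The sum of their authors' mean log2 values went from 114 at 0 h to 100.5 at 6 h and 106 at 24 h. A sum of log2 values is not a total signal. Several members are expressed in T cells too. Of 12 neutrophil markers, 11 were called higher at 1 and 2 hours, 10 at 3 and 6 hours and 8 at 24 hours, when 1 was lower. Of all probe sets, 17.4% to 27.3% were higher. The neutrophil medians ran from 0.65 at 24 hours to 1.55 at 6 hours. The sum of these markers' mean log2 values went from 116 at 0 h to 135 at 2 h and 122 at 24 h. No defining marker of either list was absent from the array. The part of these shifts in the members' changes was not tested. Of 9 erythroid markers, 4 were called higher at 1 hour (21.7% of all probe sets), 0 at 2 hours (21.7%) and 2 at 3 hours (27.3%). At 6 hours 3 were lower (19.3%), when all 9 lay below 0. At 24 hours 6 were higher (17.4%), led by Tfrc (1.21) and Slc4a1 (0.58). Of 7 platelet markers, 4 were higher at 1 hour, 3 at 2 hours (21.7%), 1 at 3 hours (27.3%) and 0 at 6 hours (22.5%). At 24 hours 4 platelet markers were higher, led by Itga2b (0.49) and Treml1 (0.37). Monocyte markers moved both ways: of 10, 5 were lower and 2 higher at 1 hour, 3 and 4 at 2 hours, 4 and 5 at 3 hours, 4 and 5 at 6 hours, and 3 and 1 at 24 hours (13.9% and 17.4% of all), when Adgre1 (-0.77) and Cd68 (-0.73) were furthest.

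Other NK receptors were called lower more often than higher. At 1 hour 6 of the 21 on the list were lower and 3 higher (15.4% and 21.7% of all probe sets), with a median of 0.01 and 8 of 21 below 0. At 2 hours 10 were lower and 2 higher (18.6% and 21.7% of all), at 3 hours 13 and 2 (19.2% and 27.3%), at 6 hours 12 and 2 (19.3% and 22.5%) and at 24 hours 10 and 2 (13.9% and 17.4%), with a median of -0.43 at 24 hours. At 24 hours the furthest were Fcgr3a, the receptor for antibody-coated targets (-0.97 ± 0.11, adjusted p = 6.56e-09), and Klri1, an NK receptor of rodents (-0.81 ± 0.19, adjusted p = 8.59e-04). The partners of CD94 are encoded by Klrc1, Klrc2 and Klrc3, which were named after their values were seen. All 3 were called lower at 3 hours, at -0.68, -0.67 and -0.57, while at 1 hour, when Klrd1 itself was called lower, none of them was called and their changes were 0.20, 0.06 and 0.10.

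The 2 receptors that rose at every time point were Klrb1b and Ncr3, also named after their values were seen. Klrb1b, an inhibitory receptor of the NKR-P1 family, had means of 8.85 ± 0.21, 9.74 ± 0.08, 10.22 ± 0.09, 10.53 ± 0.17, 10.51 ± 0.12 and 9.55 ± 0.29 in order of time. Its rise was 1.68 ± 0.09 at 3 hours (adjusted p = 8.54e-21) and 0.70 at 24 hours. Its relative Klrb1c moved the other way, with -1.06 at 3 hours and -0.64 at 24 hours. Ncr3, which encodes NKp30, rose like Ncr1 at 1, 2 and 6 hours but by more, with 0.85 at 2 hours, and was still higher at 24 hours (0.36). Klrb1c, and Hcst, Eomes, Runx3, Gzmk and Ctsc in what follows, were likewise named after their values were seen.

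Among adaptors and signalling proteins, 6 of 12 were called lower and 1 higher at 24 hours (13.9% and 17.4% of all), with Cd7 (-0.83) and the T cell and NK cell signalling chain Cd247 (-0.70) furthest. The adaptor of NKG2D, Hcst, was not called at 6 hours, when Klrk1 was lowest, and stood at -0.32 at 24 hours, where it was called. Among NK transcription factors 7 of 12 were called lower at 24 hours (13.9% of all), with Stat4 (-0.69), which relays interleukin-12, and Ets1 (-0.63) furthest. The probe set read for Eomes, the T-box relative of Tbx21, also names Golga4 and Itga9, so its changes, from -0.14 at 24 hours to -0.24 at 2 hours, cannot be assigned to Eomes. Runx3 was called lower at every time point, between -0.21 and -0.30.

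Of 10 genes of the granule release machinery, 4 were called higher and 1 lower at 1 hour (21.7% and 15.4% of all), 6 higher at 2 hours (21.7%), and 4 higher and 1 lower at 24 hours (17.4% and 13.9%), with Rab37 (0.56 ± 0.13) and the syntaxin-binding protein gene Stxbp2 (0.55 ± 0.10) furthest. Several of these genes also serve granule release in neutrophils, whose markers rose at the same times. The part of this in their changes was not tested. Of 14 further effector genes on the array, 5 were lower and 2 higher at 24 hours (13.9% and 17.4% of all), and the 2 furthest, Gzmbl3 (-1.03) and Gzmbl2 (-1.02), were read from the Gzmb probe sets described above. Gzmk, a neighbour of Gzma on chromosome 2, had a course like it, with 0.14 at 1 hour, -0.55 at 3 hours (adjusted p = 0.0149) and -0.65 at 24 hours (adjusted p = 0.00728). Ctsc, whose product activates granzymes and also neutrophil proteases, rose by 1.49 at 2 hours and was 0.27 higher at 24 hours. Of 19 cytokine receptor, chemokine and trafficking genes, 12 were lower and 2 higher at 24 hours (13.9% and 17.4% of all), with the sialoglycoprotein gene Spn (-1.08) and the interleukin-18 receptor subunit Il18rap (0.93) furthest.

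The likeness of the members' courses was described by Pearson's r over the 6 time points' means, between each gene and the mean of the other 9. It was 0.995 for Nkg7, 0.974 for Prf1, 0.962 for Klrk1, 0.887 for Gzma, 0.820 for Klrd1, 0.789 for Gzmm, 0.705 for Gzmb, 0.628 for Tbx21, 0.450 for Ctsw and -0.237 for Ncr1. With 6 points from the same rats these values are descriptions only. Among 4473 other symbols with a range of at least 0.5, the 5 most like the members' mean course were Gpr171 (r = 0.998), Dusp10 (0.996), Mcpt10 (0.995), Ccnd2 (0.989) and Hspe1 (0.989). Gpr171, a G protein-coupled receptor, was -0.18 at 1 hour, -0.68 at 2 hours, -0.90 at 3 hours, -0.96 at 6 hours and -0.88 at 24 hours from its 0 h mean.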

How the data were processed

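Per the file headers, the authors summarized the arrays by RMA at the gene level (annotation on rn5) and deposited log2 values, with a mean and SD for each time point. These 12 columns were used. The 47 columns of single arrays carry running numbers as names, which occur in no sample label, and were not used, since their order was not taken as a key to rat and time. The authors' fold changes, p-values, FDRs and F-tests were also deposited and were not used. The labels name limma without a version.

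Variances from the deposited SDs were pooled over the 6 time points (41 residual degrees of freedom), moderated as in limma 3.58.1 (R 4.3.3; squeezeVar, 5.71 prior degrees of freedom) and tested two-sided, with Benjamini-Hochberg adjustment over 27596 probe sets and a threshold of 0.05. The deposited columns were assumed to be arithmetic means and SDs, with the arrays independent. The linear model of single arrays was therefore not fitted. How far single arrays stood above background is unknown here, and the 7 or 8 arrays per mean limit precision. On simulated data for 24 h against 0 h over 27596 probe sets, the test called 100 of 100 genes changed by 1 log2 unit. It called 95 of 100 changed by 0.5, with 4.41% of calls false. Only 200 probe sets were changed there, whereas 8620 were called at 24 h in the real data. The members' SDs exceeded the median over all probe sets, so these rates need not hold for them.

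The members, the lists and the rules were chosen with earlier results of these data known. The named genes were the 10 members, in each other list the 2 called genes with the largest change at 24 h, and the 5 most like symbols. The symbols Il2rb, Fasl, Gp6 and Tubb1 were named in no probe set's annotation. Alternatives were ordinary and Welch tests, an intensity trend with robust prior, centring, quantile normalization, leaving out the lowest 25% of probe sets or the 24 h samples, averaging probe sets and, added after seeing the data, leaving out Gzmb. Figures were drawn with matplotlib 3.10.9 in Python 3.11.15.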

Additional observations from a re-analysis of the deposited data

Results flagged for a closer look

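For 3 members the change from 0 h at 24 hours differed from that at 2 hours by the moderated test of the difference after limma. The difference was -0.65 for Gzma (adjusted p = 0.0414), -0.86 for Gzmb (adjusted p = 8.92e-05) and 0.29 for Ctsw (adjusted p = 0.0452), on the log2 scale. Gzmb was called in each alternative run. The calls of Gzma and Ctsw were lost without moderation and with the variance of the 2 time points alone, and that of Ctsw also after centring and after quantile normalization (adjusted p up to 0.0796 for Gzma and 0.105 for Ctsw). The 24 hour blood came from the heart and the 2 hour blood from the tail vein, and the part of this in the differences was not tested. Samples standing apart within a time point were not looked for, since single arrays were not analysed here.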

How the results depend on the processing

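Of the counts of members called, 91 results under the alternatives stayed within 1.5 times the value reported and 12 fell below. With Welch's variance of the 2 time points, the count was 2 in place of 4 at 1 hour, 1 in place of 2 from 1 to 2 hours, 0 in place of 2 from 3 to 6 hours (2 at an unadjusted p below 0.05), 1 in place of 3 from 6 to 24 hours, 1 in place of 3 for 24 against 2 hours and 0 in place of 1 for 24 against 3 hours (3 unadjusted). The ordinary test gave 0 from 3 to 6 hours (2 unadjusted) and 1 for 24 against 2 hours. Quantile normalization gave 2 at 1 hour (1 lower and 1 higher) and 5 in place of 8 at 2 hours (4 and 1). Without Gzmb the count was 1 from 3 to 6 hours and 0 for 24 against 3 hours. Changes of single members kept their direction and side of the threshold in 800 results, lost the call in 30, gained it in 6 and turned in 4. The 4 were Gzmb at 2 hours with its probe sets averaged (0.30), Ncr1 at 3 hours (-0.017) and from 1 to 2 hours (0.0034) after centring, and Ctsw at 24 hours after quantile normalization (0.038). None of the 4 was called either way. The cause was not tested, beyond Gzmb's unlike probe sets. Centring moved medians by at most 0.05, and changed the members called to 4 lower and 0 higher at 1 hour (5 and 1 unadjusted), 7 and 0 at 2 hours (7 and 1), 9 and 0 at 3 hours (9 and 0), 9 and 1 at 6 hours and 2 and 0 for 24 against 2 hours (3 and 1). Over all probe sets it moved the lower share of calls from 41.4% to 60.0% at 1 hour, 41.3% to 52.8% at 3 hours, 44.4% to 62.7% at 24 hours and 46.9% to 35.6% from 1 to 2 hours. No paired analysis was possible because the array columns are named by running numbers that no sample label holds, and column order was not used to assign rats.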
